A study of Drosophila melanogaster with 2 samples.

Results

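Regions enriched with a GFP-tagged homeobox protein, CG9876, were examined at 56 homeobox and Pax genes of Drosophila melanogaster, CG9876 itself among them. The genes were taken from a list of symbols, all 56 of which were found among 13945 protein-coding genes of Ensembl release 115 on 6 chromosome arms. They comprised 26 genes of the PRD class (16 paired-like and 10 Pax genes), the 8 homeotic Hox genes and 22 others. Chromatin immunoprecipitation with sequencing (ChIP-seq) was carried out with an anti-GFP antibody on whole embryos of both sexes, aged 0 to 24 h and pooled, in 2 biological replicates that form 1 group. The transgenic line, CG9876-GFP, stably carries CG9876 with GFP fused to its C terminus, and the promoter that drives it is not given in the sources used here. No embryos without the fusion and no second line were analysed here, so no groups could be compared, and because no expression was measured the labelled material could not be checked by marker genes.

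The homeodomain is a DNA-binding fold whose recognition helix reads short AT-rich sites, most often with the core TAAT. PRD-class proteins can bind as dimers to facing TAAT cores, and Pax members carry a paired domain that contacts DNA as well. Hox proteins set segment identity along the body axis and often bind together with the TALE proteins Hth and Exd. Homeobox genes are known to regulate one another and themselves during embryogenesis, commonly through enhancers far from the promoter.

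Sequences around 8 of the bound summits are shown first, because they carry the strongest own-promoter region (bcd), the Hox regions (Antp and Abd-B), the only TAATTA match (tup) and the promoters with other repeated or longer motifs (Ptx1, eyg and ey). Each runs 5′ to 3′ on the plus strand of dm6 and spans 100 bases on either side of the summit, from the RefSeq genome sequence. The windows are chr3R:6759599-6759799 for bcd, chr3R:6912310-6912510 and chr3R:6914493-6914693 for Antp, chr3R:16957856-16958056 for Abd-B and chr2L:18857705-18857905 for tup. Capitals mark TAAT, or ATTA for the same letters on the other strand.
bcd: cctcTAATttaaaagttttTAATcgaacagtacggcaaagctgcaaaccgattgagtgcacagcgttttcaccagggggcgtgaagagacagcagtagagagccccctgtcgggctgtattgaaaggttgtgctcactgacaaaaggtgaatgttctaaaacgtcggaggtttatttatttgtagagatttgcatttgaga
Antp, stronger intronic region: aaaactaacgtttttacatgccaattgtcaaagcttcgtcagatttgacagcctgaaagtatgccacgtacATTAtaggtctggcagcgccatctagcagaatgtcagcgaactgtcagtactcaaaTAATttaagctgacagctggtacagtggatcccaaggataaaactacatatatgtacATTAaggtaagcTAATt
Antp, weaker intronic region: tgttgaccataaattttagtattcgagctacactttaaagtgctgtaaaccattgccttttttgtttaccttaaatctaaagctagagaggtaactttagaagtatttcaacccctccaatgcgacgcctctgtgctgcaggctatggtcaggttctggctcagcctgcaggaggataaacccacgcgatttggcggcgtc
Abd-B: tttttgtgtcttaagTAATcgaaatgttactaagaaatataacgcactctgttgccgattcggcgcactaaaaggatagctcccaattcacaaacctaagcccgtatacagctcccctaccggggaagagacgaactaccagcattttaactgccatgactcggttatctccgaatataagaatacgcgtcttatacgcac
tup: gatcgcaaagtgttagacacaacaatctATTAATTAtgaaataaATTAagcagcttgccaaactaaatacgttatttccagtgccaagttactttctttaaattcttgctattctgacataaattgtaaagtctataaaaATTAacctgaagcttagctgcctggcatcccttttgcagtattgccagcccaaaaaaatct
The weaker Antp window has no capitals, and in the tup window overlapping cores hold TAATTA.

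In the next pair of windows capitals mark GAGAG or CTCTC, the letters bound by GAGA factor, a protein that keeps promoters open. They are chr3R:30912405-30912605 for Ptx1 and chr3L:12468146-12468346 for eyg, both just upstream of the transcription start site (TSS). In the ey window, chr4:696816-697016, capitals mark TATCGATA, the core of the element read by the factor Dref.
Ptx1: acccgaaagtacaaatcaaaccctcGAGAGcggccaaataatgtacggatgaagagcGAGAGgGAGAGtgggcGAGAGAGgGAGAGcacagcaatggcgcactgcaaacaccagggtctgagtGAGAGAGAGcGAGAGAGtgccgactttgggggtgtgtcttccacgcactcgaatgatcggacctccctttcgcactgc
eyg: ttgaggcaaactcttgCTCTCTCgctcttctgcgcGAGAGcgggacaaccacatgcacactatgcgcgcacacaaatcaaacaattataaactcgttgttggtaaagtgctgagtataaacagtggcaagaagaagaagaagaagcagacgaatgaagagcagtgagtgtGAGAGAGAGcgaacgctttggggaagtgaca
ey: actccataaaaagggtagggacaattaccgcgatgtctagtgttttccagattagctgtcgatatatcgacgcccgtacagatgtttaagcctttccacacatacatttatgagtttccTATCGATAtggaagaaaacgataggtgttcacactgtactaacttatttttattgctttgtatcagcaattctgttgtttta

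A region was counted at a gene when its summit, the position of highest signal, lay in the gene body or within 5 kb of it. The authors deposited 2433 regions that pass their reproducibility threshold, and longer lists of 30000 candidates each for replicate 1, replicate 2 and both combined, which reach down into background. The signal of each region is the authors' own value. It was used to describe and rank regions within a list, since the lists differ in scale, and the lowest signal among reproducible regions was 85.4. Read depth is not given in the sources used here. Signal outside listed regions was not measured, so a gene without a region is a gene with none listed.

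Reproducible regions were found at 16 of the 56 genes (28.6%), against 35.3% of all protein-coding genes. These 16 held 19 regions, and 12 of the 19 had a homeobox or Pax gene of the list as the gene with the nearest TSS. At 5 genes the summit lay within 1 kb of a TSS of the gene itself (8.93%), against 15.8% of all genes: bcd, the maternal determinant of the anterior, Ptx1 of the Pitx family, PHDP, and the eye genes ey and eyg. With the strongest 2433 regions of 1 replicate the own-promoter count was 2 genes in replicate 1 (3.57%, against 15.8% of all genes) and 3 in replicate 2 (5.36%, against 15.3%). Candidates of the combined list were present at 55 of the 56 genes, against 92.8% of all genes, and only toy had none. The strongest 2433 regions of replicate 1 touched 15 of the 56 genes (26.8%), against 35.3% of all genes, and those of replicate 2 also 15, against 34% of all genes. In both replicates the count was 10 genes (17.9%), against 28% of all genes.

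**Figure D1:**
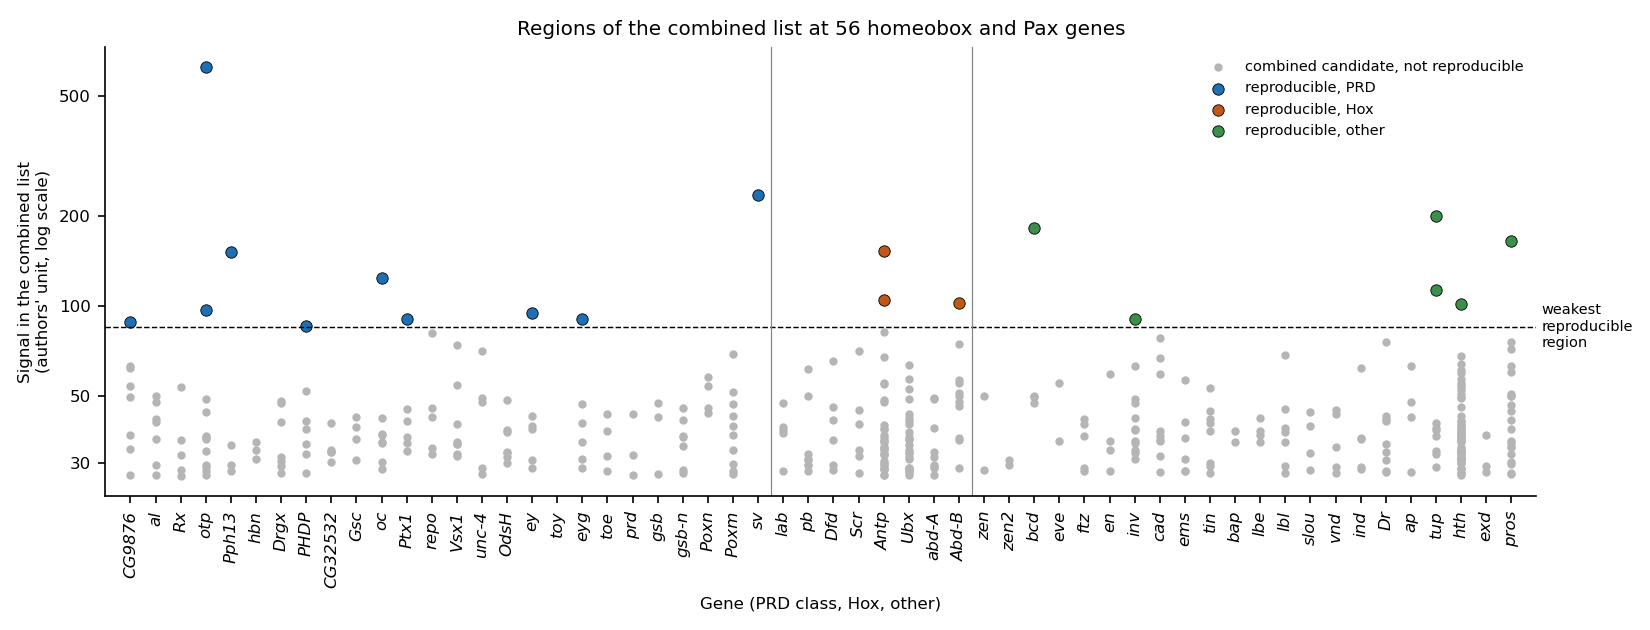
Each point is a region of the combined list at 1 of the 56 genes, with its signal on a log scale in the authors' unit. Coloured points are reproducible regions by class and grey points are candidates that did not pass, so a reader sees that otp stands highest at 624.2 and that most genes have only grey points under 85.4.

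Few candidates at these genes passed the reproducibility threshold. Of 423 combined candidates there, 19 were reproducible (4.49%), against 8.11% of all combined candidates. Those that passed all had a combined signal of 85.8 or more, and the highest that did not pass had 81.7. The share at these genes thus separates candidates by combined signal, and it does not measure how well the replicates matched. Candidates themselves were not sparse, with 266 per Mb of the merged windows against 224 per Mb of the 6 arms and 249 per Mb over the windows of all genes. Reproducible regions numbered 11.9 per Mb, against 18.2 per Mb of the arms and 21 per Mb over the windows of all genes. The total candidate counts were close in the replicates, at 391 in replicate 1 and 410 in replicate 2. Single genes differed in both directions, such as hth at 30 and 71 and pros at 29 and 17, replicate 1 first.

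The direction of the comparison with all genes depended on how regions were assigned. The 56 genes had a median body of 11.5 kb, against 2.17 kb for all genes. Within the gene body alone, 10.7% of the 56 genes and 7.42% of all genes had a reproducible region. When each region went to the 1 gene with the nearest TSS, 23.2% of the 56 and 14.1% of all genes had one. With 2 kb or 10 kb around the body the 56 genes stayed lower, at 21.4% against 24.7% and 44.6% against 47.9%. Among genes over 20 kb long, 9 of 18 had a region (50%), against 50.2% of all genes of that length. Genes of 5 to 20 kb had one in 3 of 20 cases (15%), against 44.6%, and genes under 5 kb in 4 of 18 (22.2%), against 31.6%.

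**Figure D2:**
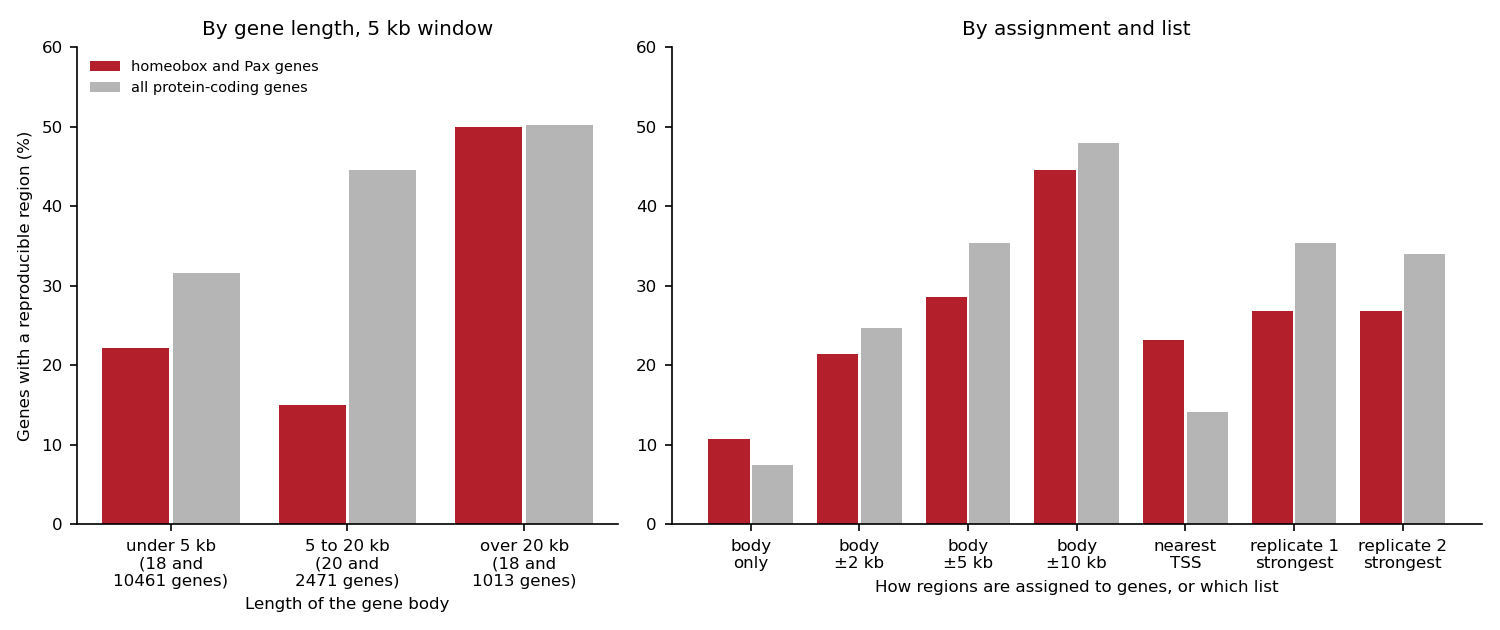
Bars give the percentage of genes with a reproducible region, for the 56 homeobox and Pax genes and, to their right, for all protein-coding genes. The left panel splits genes by body length and the right panel changes the assignment or takes the strongest 2433 regions of 1 replicate; the 56 genes are lower at 5 kb (28.6% against 35.3%) and higher by nearest TSS (23.2% against 14.1%).

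The summit was within 1 kb of any protein-coding TSS in 8 of 19 regions (42.1%), against 66.4% of all reproducible regions. In the strongest 2433 regions of each replicate this share was 31.9% ± 4.75 at the 56 genes and 66.4% ± 0.262 over all of those regions (SD, n = 2). The share at the 56 genes depended on the window, at 0% of 7 regions within gene bodies alone and 50% of 14 regions with 2 kb around them. The difference was not tested. Of the 11 distal regions, 4 lay in introns, 4 between genes, 2 in 3′ UTRs and 1 in a coding exon. In 3 of the 8 promoter regions the promoter belonged to a neighbour: cold beside Pph13, and CG10602 beside tup, with 2 regions. The median signal was 105.1 over the 11 distal regions (88.4 to 624.2) and 104.0 over the 8 promoter regions (85.8 to 199.0), so the ranges overlapped. Over all reproducible regions the medians were 120.9 for distal and 133.0 for promoter regions.

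CG9876, the gene of the tagged factor, had 1 reproducible region in the intergenic DNA 2905 bp upstream of its TSS, on 2R (23096986 to 23097355, summit 23097171). Its signal was 88.4 in the combined list (rank 2313 of 30000) and 49.6 in replicate 1 (rank 1892), and the summit lay in no listed region of replicate 2. The nearest summit listed in replicate 2 was 11074 bp away, with a signal of 15.7 (rank 27230). The combined signal was thus close to the lowest reproducible value, and the level at this summit in replicate 2 was not measured. In all, the window of CG9876 held 8 combined candidates, 8 of replicate 1 and 2 of replicate 2, of which 1 combined candidate lay at its promoter, 654 bp upstream, with a signal of 49.7. Within the gene body only 1 candidate was listed, in an intron, with a combined signal of 27.3 (rank 29893). Whether the fusion construct holds sequence of this locus is not given in the sources used here, and any share of its reads in these regions was not tested.

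**Figure D3:**
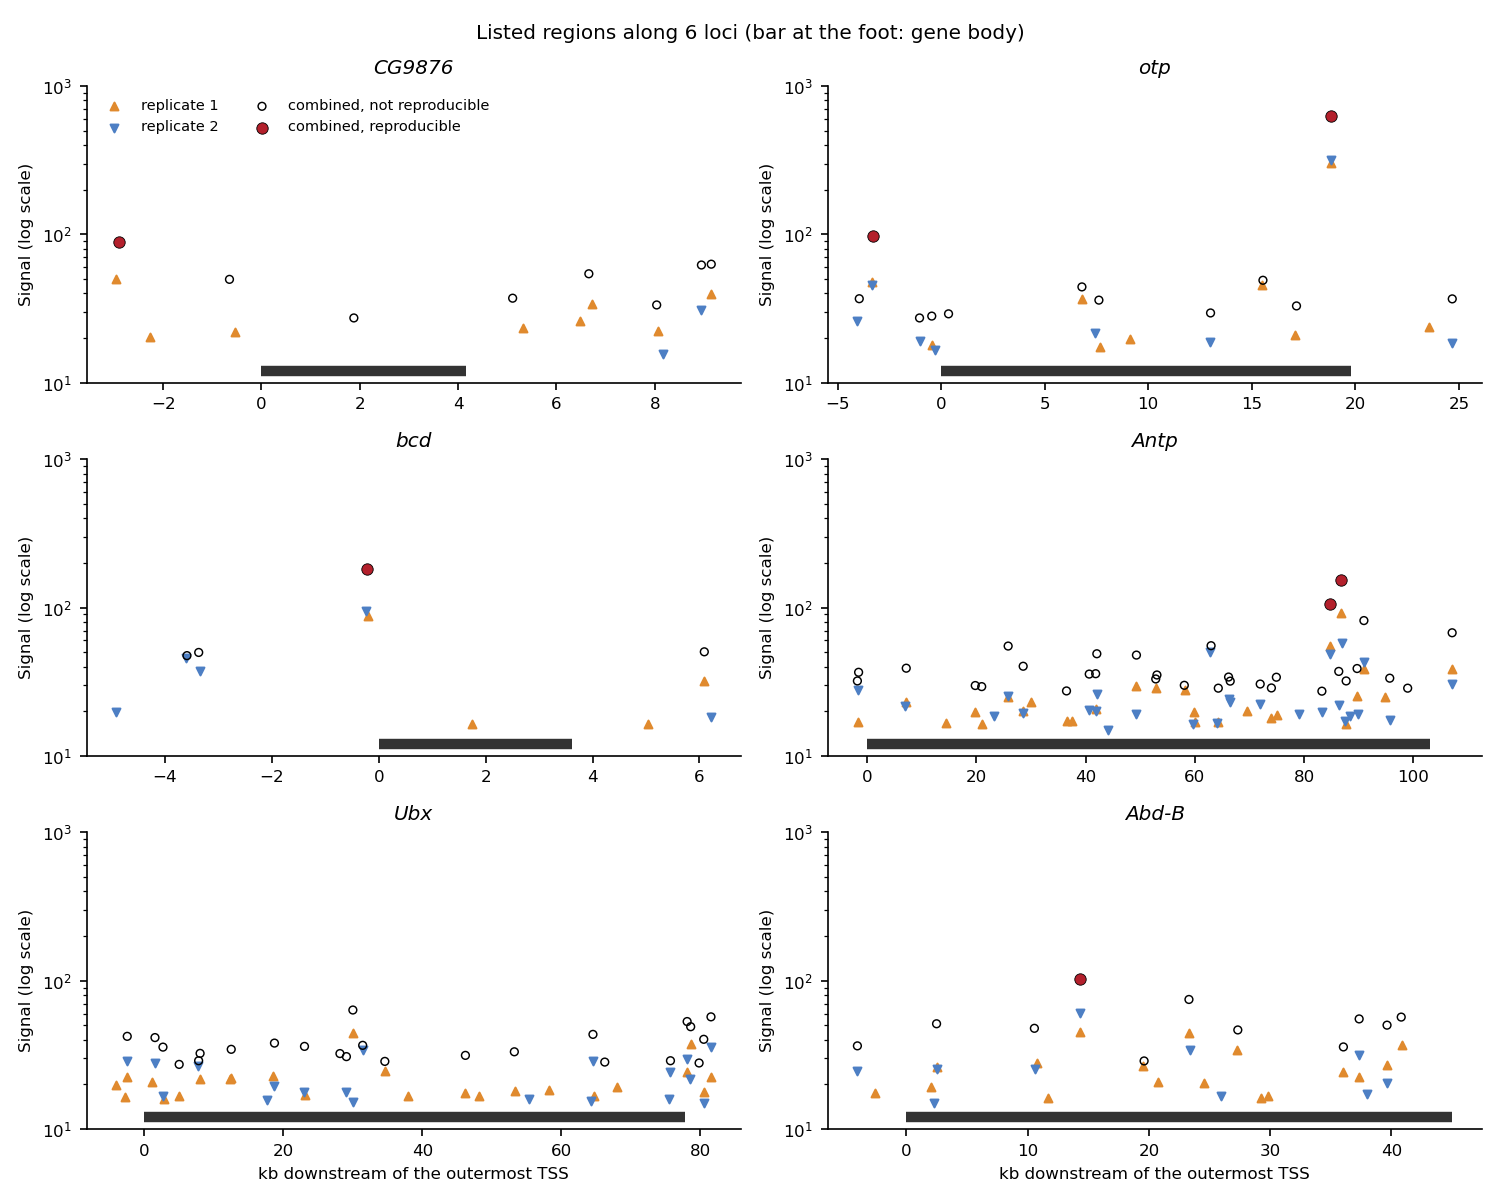
Listed regions along 6 loci, placed by kb downstream of the gene's outermost TSS, with signal on a log scale in the authors' unit and the gene body as a bar at the foot. Red points are reproducible regions: 1 upstream of CG9876 with no replicate 2 region under it, the 624.2 region near the end of otp, the promoter region of bcd, 2 close together in Antp, none in Ubx and 1 in Abd-B.

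Among the 16 paired-like genes, 6 had a reproducible region (37.5%), a share near the 35.3% of all genes. The strongest region at any of the 56 genes was at otp, which encodes the fly Orthopedia protein of the brain and hindgut. It spanned 276 bp on 2R (20884466 to 20884741, summit 20884600), with its summit in a coding exon 975 bp from the 3′ end of the gene. All 276 bp lay in the 309 bp form of that exon, and 247 bp in the 267 bp form of another transcript. Its signal was 624.2 in both replicates combined (rank 45), 304.0 in replicate 1 (rank 57) and 315.1 in replicate 2 (rank 33). It ranked near the top of all lists, and it was the highest of the 10 reproducible regions in the genome with a summit in a coding exon outside promoters, where the next, in klar, had 306.2. No TAAT stood within 100 bp of it, and GC content there was 58.2%, the highest of the 19 regions. A second region upstream of otp, 2978 bp from the TSS of CAH15, had 96.9 in both replicates combined, 47.6 in replicate 1 and 45.4 in replicate 2.

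The other paired-like regions were weaker. At Pph13, a regulator of photoreceptor rhodopsin genes, the summit lay 3033 bp upstream of the gene but 55 bp upstream of the TSS of cold, with signals of 151.9 in both replicates combined, 86.8 in replicate 1 and 67.5 in replicate 2. The region of oc, the head gap gene orthodenticle, lay 2841 bp beyond the gene's 3′ end and had 124.2 in both replicates combined, 73.8 in replicate 1 and 48.2 in replicate 2. Both were listed in each replicate and within its strongest 2433 regions. Ptx1 had its region 249 bp upstream of its TSS, with 90.7 in both replicates combined, 37.6 in replicate 1 (rank 3106) and 49.1 in replicate 2 (rank 2163). PHDP had one 218 bp upstream, with 85.8 in the combined list (rank 2415), close to the threshold, and 65.1 in replicate 1 (rank 1260). Its summit was in no region of replicate 2, although a region of that replicate overlapped it, with a summit 227 bp away and a signal of 36.1 (rank 4092).

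Paired-like genes without a reproducible region reached close to the threshold in a few cases. The highest combined signal was 81.0 (rank 2646) in the window of repo, the determinant of glial fate, but that summit lay 6719 bp from the TSS of repo and 224 bp from that of its neighbour 14-3-3epsilon. It was followed by 74.3 at Vsx1, a gene of the visual system, and 71.0 at unc-4, a gene of neuronal identity, both also nearest to the TSS of another gene, CG34435 and OdsH. The highest signal in each replicate's own list was 38.5 and 35.3 for repo, 43.0 and 35.7 for Vsx1 and 33.8 and 34.8 for unc-4, replicate 1 first. These were not matched to each other or to the combined candidate. These genes had between 5 and 8 combined candidates each.

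Of the 10 Pax genes, 3 had a reproducible region (30%, against 35.3% of all genes), at sv, ey and eyg. The chromosome 4 genes sv, the fly Pax2 gene of bristle and cone cells, and ey, the Pax6 gene of eye formation, had regions whose summit was listed in replicate 2 and not in replicate 1. The sv region (1113094 to 1113463) had its summit in a 3′ UTR and within the bodies of both sv and Cals, with 234.2 in the combined list (rank 362) and 148.5 in replicate 2 (rank 186). The ey region (696731 to 697100), 773 bp upstream of the TSS, had 94.6 in the combined list (rank 2064) and 38.6 in replicate 2 (rank 3530). Over the whole of chromosome 4, replicate 1 listed 29 regions and replicate 2 listed 238, so the replicates differed over the whole chromosome. Without it 14 of the 56 genes had a region (25%, against 35.1% of all genes). The nearest listed summit of replicate 1 was 41449 bp from the sv summit and 13011 bp from the ey summit.

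At eyg, a Pax6-related gene on 3L that drives eye growth, the region lay 225 bp upstream of the TSS, with 90.8 in both replicates combined, 30.8 in replicate 1 (rank 4971) and 54.3 in replicate 2 (rank 1763). Its neighbour and partner toe had no reproducible region, with a highest combined signal of 43.8. The chromosome 4 gene toy, the Pax6 gene upstream of ey, had no candidate in the combined list and none in replicate 1, and 8 in replicate 2 with a highest signal of 37.4 (rank 3772). Poxm, a mesodermal Pax gene, had the highest combined signal among Pax genes without a region, at 69.0 (rank 3479). The segmentation genes prd, gsb and gsb-n had 43.5, 47.5 and 45.7.

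Among the 8 Hox genes, 2 had a reproducible region (25%, against 35.3% of all genes) and none had one at its own promoter. Antp, which specifies the thorax, held 2 in introns on 3R, 18247 and 20430 bp downstream of its nearest TSS, in sequence that also lies within CG46458. The stronger (6912225 to 6912594) had signals of 153.0 in both replicates combined (rank 873), 91.4 in replicate 1 (rank 688) and 57.3 in replicate 2 (rank 1579). The weaker (6914408 to 6914777) had 105.1 (rank 1734), 55.0 (rank 1618) and 48.8 (rank 2189) in the same order. Both were listed in each replicate within its strongest 2433 regions, and they were the pair whose windows differ in TAAT cores, 4 and 0. Abd-B, which specifies the posterior abdomen, had an intronic region (16957771 to 16958140) 2325 bp downstream of a TSS, with 102.7 in both replicates combined, 44.8 in replicate 1 and 60.4 in replicate 2.

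The other 6 Hox genes had candidates only. Their highest combined signals were 70.6 at Scr, 65.5 at Dfd, 63.5 at Ubx, 61.9 at pb, 49.3 at abd-A and 47.6 at lab, all under the threshold. Ubx, which specifies the third thoracic segment, had 24 combined candidates along a body of 77.8 kb, none of them at its own promoter and 3 at promoters of its neighbours CG14907 and modSP, while Antp had 32 along 103.0 kb. The highest candidates at Ubx lay at different sites in the 2 replicates. That of replicate 1, 29.98 kb downstream of the outermost TSS, had 44.5 (rank 2244), within the strongest 2433 regions of its replicate. That of replicate 2, 81.47 kb downstream, had 35.6 (rank 4231) and was not within them.

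Between the Hox genes, the complexes held further regions. From Ubx to Abd-B, the Bithorax complex spanned 315.6 kb with 5 reproducible regions, 15.8 per Mb, against 18.2 per Mb of the arms. Only the one in Abd-B lay within 5 kb of a gene of the list. The strongest of the 5 was intergenic, between Ubx and abd-A, on 3R (16798812 to 16799010), with 326.7 in both replicates combined (rank 166), 191.5 in replicate 1 and 140.0 in replicate 2. It lay 10566 bp from the TSS of Glut3, a glucose transporter gene. The Antennapedia complex spanned 337.8 kb with 3 reproducible regions, 8.88 per Mb, which were those of bcd and Antp.

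Of the 22 other genes, 5 had a reproducible region (22.7%, against 35.3% of all genes). Within the Antennapedia complex but without a homeotic role, bcd had a narrow region of 114 bp on 3R (6759615 to 6759728), 233 bp upstream of its TSS. Its signal was 181.4 in both replicates combined (rank 625), 87.5 in replicate 1 (rank 753) and 94.5 in replicate 2 (rank 561), the highest of the 5 own-promoter regions. It was also the only one of those 5 within the strongest 2433 regions of both replicates. The other genes of the list in this complex without a homeotic role had no reproducible region. Their highest combined signals were 50.3 at zen, a dorsal patterning gene, 42.1 at ftz, a pair-rule gene, and 30.6 at zen2. The candidate of 50.3 also lay in the window of bcd.

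Of the 13 remaining ANTP-class genes only 1 had a reproducible region (7.69%, against 35.3% of all genes). The region was at inv, the paralogue of engrailed, 4778 bp upstream of its TSS. It had 90.3 in both replicates combined, 29.7 in replicate 1 (rank 5523) and 61.1 in replicate 2 (rank 1370), the largest ratio between replicates in either direction among the 15 regions listed in both. The paralogue en itself reached 59.4. The posterior determinant cad reached 78.2 in the combined list (rank 2779), at a candidate nearest to the TSS of Pomp. In each replicate apart, its highest region had 53.5 (replicate 1, rank 1683) and 64.7 (replicate 2, rank 1218). Each was within the strongest 2433 of its replicate, but the 2 were not matched and may be different sites. Dr, a neural column gene, reached 75.8, and lbl, a muscle and heart identity gene, 68.8 at the promoter of its neighbour CheB93b.

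The LIM, TALE and PROS genes carried the rest. Both regions at tup, the fly Islet gene of motor neurons and heart, lay at promoters of CG10602 just past its 3′ end, 126 and 112 bp upstream of a TSS. The first had 199.0 in both replicates combined, 113.7 in replicate 1 and 84.3 in replicate 2, and the second 113.5, 69.0 and 37.0 in the same order. At pros, which ends neural stem cell division, a region in a 3′ UTR had 165.2 in both replicates combined, 72.0 in replicate 1 and 90.4 in replicate 2. At hth, whose product carries Exd into the nucleus and partners Hox proteins, an intronic region had 101.3 in both replicates combined, 50.8 in replicate 1 and 50.1 in replicate 2, and it was 1 of 54 combined candidates along a body of 132.0 kb. Its partner exd reached 37.1 with 3 combined candidates. The LIM gene ap, which sets dorsal identity in the wing, had no reproducible region and a highest combined signal of 62.9 (rank 4135), at the promoter of its neighbour vlc.

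Among regions listed in both replicates, the spread between the replicates was like that of the whole list, but fewer regions at these genes were so listed. Over the 15 regions at these genes listed in both replicates, the log2 ratio of replicate 1 over replicate 2 had a median of 0.02 and an SD of 0.55, against a median of 0.09 and an SD of 0.61 over all 2363 such regions. The extremes were 0.90 at the weaker tup region and -1.04 at inv. Of the 19 regions, 10 were within the strongest 2433 regions of both replicates (52.6%), against 66.9% of all reproducible regions. The summit was listed in both replicates for 15 of the 19 regions, a smaller share than the 2363 of all 2433. The 4 regions not listed in one replicate were those of CG9876, PHDP, ey and sv, all of the PRD class, so 5 of 26 PRD genes had a region listed in both replicates. Over the 56 genes the count was then 12 (21.4%), against 34.6% of all genes.

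**Figure D4:**
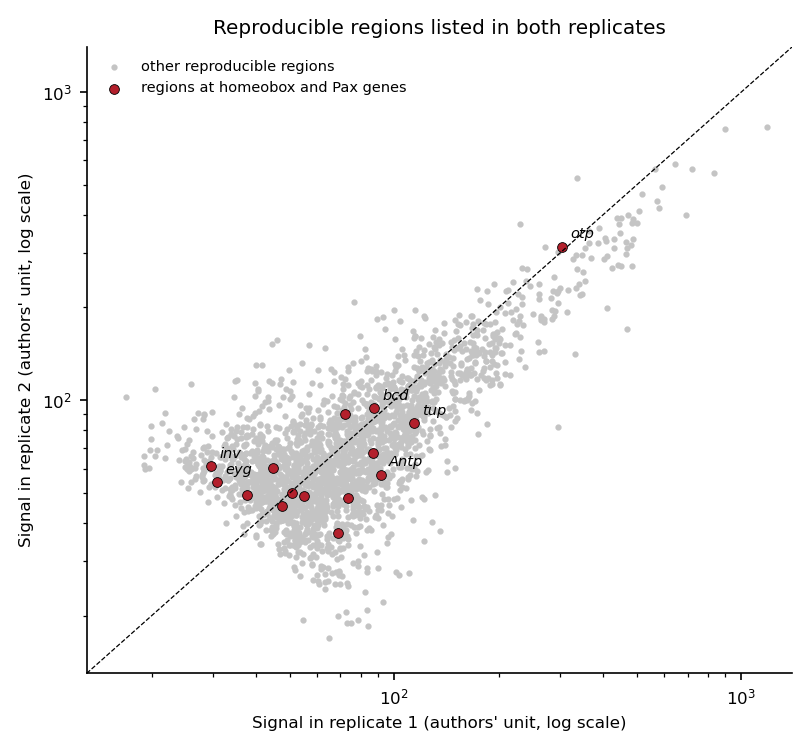
Signal in replicate 1 (horizontal) and replicate 2 (vertical), both on log scales in the authors' unit, for reproducible regions listed in both, with equal values on the dashed line. The 15 regions at homeobox and Pax genes, in red, lie within the cloud of the others, with otp near the line at 304.0 and 315.1 and inv on its upper side at 29.7 and 61.1.

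By class, PRD genes had a region in 9 of 26 cases (34.6%), Hox genes in 2 of 8 (25%) and other genes in 5 of 22 (22.7%), so the PRD share was near the 35.3% of all protein-coding genes. Own-promoter regions were found at 4 PRD genes (15.4%), no Hox gene and 1 other gene (4.55%), and the PRD share was again near the 15.8% of all genes. None of those 4 PRD regions was within the strongest 2433 regions of both replicates. The summits at PHDP and ey were each listed in 1 replicate only. The strongest 2433 regions of replicate 1 touched 6 of 26 PRD, 3 of 8 Hox and 6 of 22 other genes. Those of replicate 2 touched 6 of 26, 2 of 8 and 7 of 22. Over all genes the shares were 35.3% and 34%, replicate 1 first. In each replicate the PRD share was thus below that of all genes and was not the highest of the classes. Candidate density differed little between PRD and Hox windows, at 246 and 242 per Mb, and was 301 per Mb for the others. The differences between classes rest on few genes, and no test was run on them.

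Motif letters were counted on both strands within 100 bp of each summit, with overlapping matches counted separately and TAATTA holding TAAT on each strand. TAAT was present in 17 of the 19 regions (89.5%), against 87.2% of all reproducible regions, and 67.8% of the 423 combined candidates at these genes, against 67.3% of all combined candidates. The 2 windows without it were the coding-exon region of otp and the weaker Antp region. TAATTA was present in 1 region, that of tup (5.26%), against 11.3% of all reproducible regions, and TAAT facing ATTA over 2 or 3 bases in none, against 1.03% and 1.52%. TAATCC, the letters preferred by Bcd-type homeodomains, was in none, against 6.33%, and TGATNNAT, a joint Hox and Exd site, only in the hth intron, against 11% of all reproducible regions. CAGGTA, read by the early factor Zelda, was in none, against 4.03%, and GGTCACACT, a core promoter element, in none, against 2.38%.

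Letters of other factors stood at some of the promoters printed above. GAGAG was present in 9 of 19 regions (47.4%), against 25.7% of all reproducible regions, with 11 matches at Ptx1, 10 in the 3′ UTR region of pros and 6 at eyg. Among combined candidates the contrast was smaller, at 32.6% of those at these genes and 26.8% of all. GCCAT, the core read by the Polycomb recruiter Pho, was also present in 9 of 19 (47.4%), against 31.3%, and among combined candidates in 41.4% at these genes and 38.4% overall. TATCGATA was present only at ey (5.26%), against 6.04%. These are matches of letters in a window of 201 bases, and whether any protein was bound there was not measured.

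At the 40 genes without a reproducible region, the nearest one was a median of 17724 bp from the gene (5252 to 81109), against a median of 22967 bp for all 9024 genes without one. The nearest such case was Drgx, a paired-like gene, with a summit 5252 bp from the gene body, just outside the window of 5 kb. The farthest was lab, the most anterior Hox gene, at 81109 bp.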

How the data were processed

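ChIP-seq regions came from the 4 lists that the authors deposited for dm6: 1 reproducible, 1 combined and 1 per replicate. Both replicates were called against the same control, per the deposited text files, and that control was not analysed here. Column 7 holds the authors' signal and column 9 of the deposited lists holds −log10 of a q-value. For the aligner, peak caller, settings and depth, nothing is given in the sources used here. The dm3 lists were not used.

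The 56 genes, their classes and the motifs were chosen with earlier results of these data known. Genes and TSSs were those of Ensembl release 115, and sequence was that of the RefSeq genome of the same assembly. Coordinates count from 1. Named were CG9876, every gene with a reproducible region, the 4 of each class with the highest combined signal among the rest, genes with no candidate, and up to 6 promoter-bound homeobox genes outside the list. Further genes were named after their values were seen, to complete a family. A replicate region was matched where it held the reproducible summit. Motifs were read within 100 bp of summits. No test was run, since 2 replicates of 1 group allow none and genes are not replicates. Window, promoter and motif steps recovered every planted position when tested on simulated data. Python 3.11.15, numpy 2.4.6, pandas 2.3.3 and matplotlib 3.10.9 were used.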

Additional observations from a re-analysis of the deposited data

How the results depend on the processing

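Counts were recomputed under 90 alternatives in all, and 50 stayed within 1.5 times the count or within 1 SD of the replicates. Within the gene body alone there were 6 genes with 7 regions (2 PRD, 2 other), 0% of them at promoters, a median signal of 153.0, 259 combined candidates, and 7.42% of all genes. With 10 kb the values were 25 genes, 32 regions, 14 PRD, 8 other, a median of 116.3, and 47.9% of all genes. With 2 kb, 50% of regions were at promoters and 24.7% of all genes had one. The reproducible regions of above-median signal gave 7 genes, 7 regions, 1 promoter-bound gene, 3 PRD, 1 Hox, 3 other, a median of 181.4, 20.9% of all genes and 8.63% promoter-bound. A promoter window of 500 bp gave 36.8% of regions at promoters and 13.6% of all genes promoter-bound, a window of 2 kb 19.2%, and any overlap 16.4%. By nearest TSS, 31.2% of regions were at promoters and 14.1% of all genes had one.

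Leaving out either replicate, with the strongest 2433 regions of the other, gave 15 to 15 genes, 17 to 21 regions, 6 to 6 PRD, 2 to 3 Hox, 6 to 7 other, 2 to 3 promoter-bound genes, 28.6 to 35.3% of regions at promoters, medians of 53.5 to 60.4 on the replicates' own scale, 391 to 410 candidates, and 34 to 35.3% of all genes, 15.3 to 15.8% promoter-bound. Alternatives chosen after seeing the data left 14 genes (25%, against 35.1% of all genes) and 17 regions without chromosome 4. With only regions listed in both replicates there were 12 genes (21.4%, against 34.6% of all genes) and 15 regions, 5 of the genes PRD. No paired analysis was possible because there is 1 group.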

Other observations

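A further 46 genes outside the list of 56, taken as homeobox genes by symbol, were looked at in the same way. Whether each of them encodes a homeodomain was not checked. Reproducible regions were present at 10 of them (21.7%), with 13 regions, against 35.3% of all protein-coding genes. Own-promoter regions were found at 2 (4.35%), against 15.8% of all genes. These were NK7.1, with a signal of 390.2 in the combined list, and ro, a gene of photoreceptor fate in the eye, with 192.8. Combined candidates were present at 44 of the 46, at 253 per Mb of their windows, and 4.11% of these candidates were reproducible, against 8.11% of all combined candidates.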
